A study of Mus musculus with 20 samples.

Results

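The circadian clock genes Arntl, Npas2, Clock, Dbp, Nr1d1, Nr1d2, Per1, Per2, Per3 and Bhlhe41 were followed in RNA sequencing of whole mouse lung. These 10 genes were chosen with earlier results of these data known and were matched by symbol. Shares of members called are therefore set beside all genes as a description only. All 10 are listed among the 24054 genes of the table, and all 10 were among the 16193 genes with enough counts to be tested. The study crossed a genotype label with an inhaled allergen in female C57Bl6 mice, with 5 biological replicates a group. KO_HDM mice were labelled ALOX15 knockout and received house dust mite (HDM) extract into the nose daily for 14 days. KO_saline mice carried the same knockout label and received saline. WT_HDM mice were labelled wild type and received HDM over the same 14 days, and WT_saline mice were labelled wild type and received saline. Alox15 encodes a lipoxygenase of polyunsaturated fatty acids, and the labels do not describe how the knockout allele was made. The hour at which lungs were collected is not given in the sources used here, and its part in the differences below was not tested.

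The clock is a feedback loop of transcription that runs in nearly every cell. CLOCK or its relative NPAS2 pairs with ARNTL, also called BMAL1, and the pair binds E-boxes, short DNA elements in front of the Per, Nr1d, Dbp and Bhlhe41 genes. PER proteins, together with CRY proteins, then inhibit the pair, while the REV-ERB receptors encoded by Nr1d1 and Nr1d2 repress Arntl and Npas2. Through this wiring Arntl and Npas2 transcripts run roughly opposite to Nr1d1, Dbp and the Per genes over the day, with Nr1d1 reaching its peak earlier in the day than Per2. In lung, the clock of club cells is known to modulate inflammatory responses.

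The E-box letters CACGTG, which read the same on both strands, and the D-box letters TTATGTAA or TTACGTAA on either strand were searched in the 250 bases before each start in the RefSeq promoter table of assembly GRCm38.p6. D-boxes are bound by DBP and its relatives. The table holds 13 starts for 9 members and none for Per2. E-box letters stood before Per1 and Bhlhe41 and D-box letters before Per3, against 6.02% and 0.931% of all 32851 starts. These 3 sequences are shown because they hold such letters and belong to genes with unlike results below: Bhlhe41 was called higher in all 4 comparisons, Per3 in both comparisons of HDM with saline, and Per1 in none. Capitals mark the E-box or D-box letters, and each sequence is written 5′ to 3′ on the strand of the gene.
Bhlhe41, GRCm38.p6 chr6:145865421-145865670, minus strand: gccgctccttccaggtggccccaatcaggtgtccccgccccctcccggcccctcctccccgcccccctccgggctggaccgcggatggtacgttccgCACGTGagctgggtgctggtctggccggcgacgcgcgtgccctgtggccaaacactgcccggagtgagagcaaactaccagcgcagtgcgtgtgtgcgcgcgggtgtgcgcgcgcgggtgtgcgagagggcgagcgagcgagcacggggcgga
Per1, GRCm38.p6 chr11:69098699-69098948, plus strand: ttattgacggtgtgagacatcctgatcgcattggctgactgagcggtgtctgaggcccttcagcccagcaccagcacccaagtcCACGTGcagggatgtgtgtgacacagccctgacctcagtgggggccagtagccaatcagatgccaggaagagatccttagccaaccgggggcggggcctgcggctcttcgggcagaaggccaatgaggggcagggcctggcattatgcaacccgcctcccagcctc
Per3, GRCm38.p6 chr4:151044666-151044915, minus strand: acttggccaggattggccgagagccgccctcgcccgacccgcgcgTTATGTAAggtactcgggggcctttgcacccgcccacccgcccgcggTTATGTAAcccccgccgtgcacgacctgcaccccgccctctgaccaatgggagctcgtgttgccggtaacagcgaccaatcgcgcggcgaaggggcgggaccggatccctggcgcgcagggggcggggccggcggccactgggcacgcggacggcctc
The E-box of Bhlhe41 began 153 bases before the start and that of Per1 166 bases before it, and the D-boxes of Per3 began 205 and 158 bases before it. The letters NNTAGGTCA of the element bound by ROR and REV-ERB receptors, on either strand, were found before no member and before 2.21% of all starts. Its shorter form AGGTCA, which lies within those letters, stood before Clock, Nr1d2 and Per1, and before 14.0% of all starts. These are matches of letters within a short window and show no binding.

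Libraries held 17840107 to 21082734 counts in KO_HDM, 21120826 to 23305645 in KO_saline, 12573094 to 20662555 in WT_HDM and 15601820 to 21715791 in WT_saline. Levels are given as CPM, a gene's counts relative to the library total after TMM scaling between libraries. All listed markers of alveolar type 2, alveolar type 1, club and endothelial cells were found in each group. Alox15 was higher in the libraries labelled knockout, with 39.4, 43.5, 42.2, 45.5 and 35.0 CPM in KO_HDM and 40.8, 39.1, 44.7, 38.4 and 41.2 CPM in KO_saline. WT_HDM libraries held 12.9, 19.8, 29.8, 22.7 and 7.92 CPM and WT_saline libraries 0.825, 11.1, 5.16, 3.87 and 1.98 CPM. The knockout-labelled libraries did not overlap with wild type under either treatment (exact two-sided permutation p = 0.00794 each, the smallest that 5 against 5 allows). With edgeR, Alox15 was higher by 3.15 on the log2 scale in KO_saline over WT_saline (adjusted p = 0.000583) and was not called in KO_HDM over WT_HDM (1.15, interval 0.28 to 2.02, adjusted p = 0.107). The direction goes against the label, so "knockout-labelled" is used below. In 5 libraries (KO_HDM 5, WT_HDM 2 and 4, WT_saline 2 and 4) the adipocyte hormone Adipoq was at 50 CPM or more. Results that depend on these libraries are stated. Markers of other tissues varied among them too. Cardiac muscle markers summed to 2180 CPM in KO_HDM 5 and to 71 and 3540 CPM in WT_HDM 2 and 4. They summed to 2110 and 549 CPM in WT_saline 2 and 4. The group medians were 78.4, 151 and 378 CPM. Skeletal muscle markers summed to 2840 CPM in WT_HDM 2 (group median 4.43). T and B cell markers summed to 192 and 460 CPM in WT_saline 4 (group medians 30.7 and 122).

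In WT_saline lungs the activators Arntl and Npas2 were highest, and Dbp, Nr1d2 and Bhlhe41 were lowest, with no overlap with any other group. KO_saline likewise stood apart in Nr1d1 (207 to 282 CPM, at most 142 CPM elsewhere). KO_HDM stood apart in Bhlhe41 (66.0 to 76.7 CPM, at most 55.6 CPM elsewhere). How many of all genes set WT_saline, KO_saline or KO_HDM apart from every other group in this way was not counted. Standing apart is thus not shown to be particular to these members. The difference log2 Dbp minus log2 Arntl sums up Dbp and Arntl without a test. It lay between 2.37 and 3.50 in KO_HDM libraries, between 1.58 and 3.39 in KO_saline, between 1.59 and 2.76 in WT_HDM, and between -1.62 and 0.15 in WT_saline. Because 2 of the comparisons below share the WT_saline libraries, like values in WT_HDM over WT_saline and in KO_saline over WT_saline are not independent. The interaction tested below uses the WT_saline libraries as well.

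**Figure D1:**
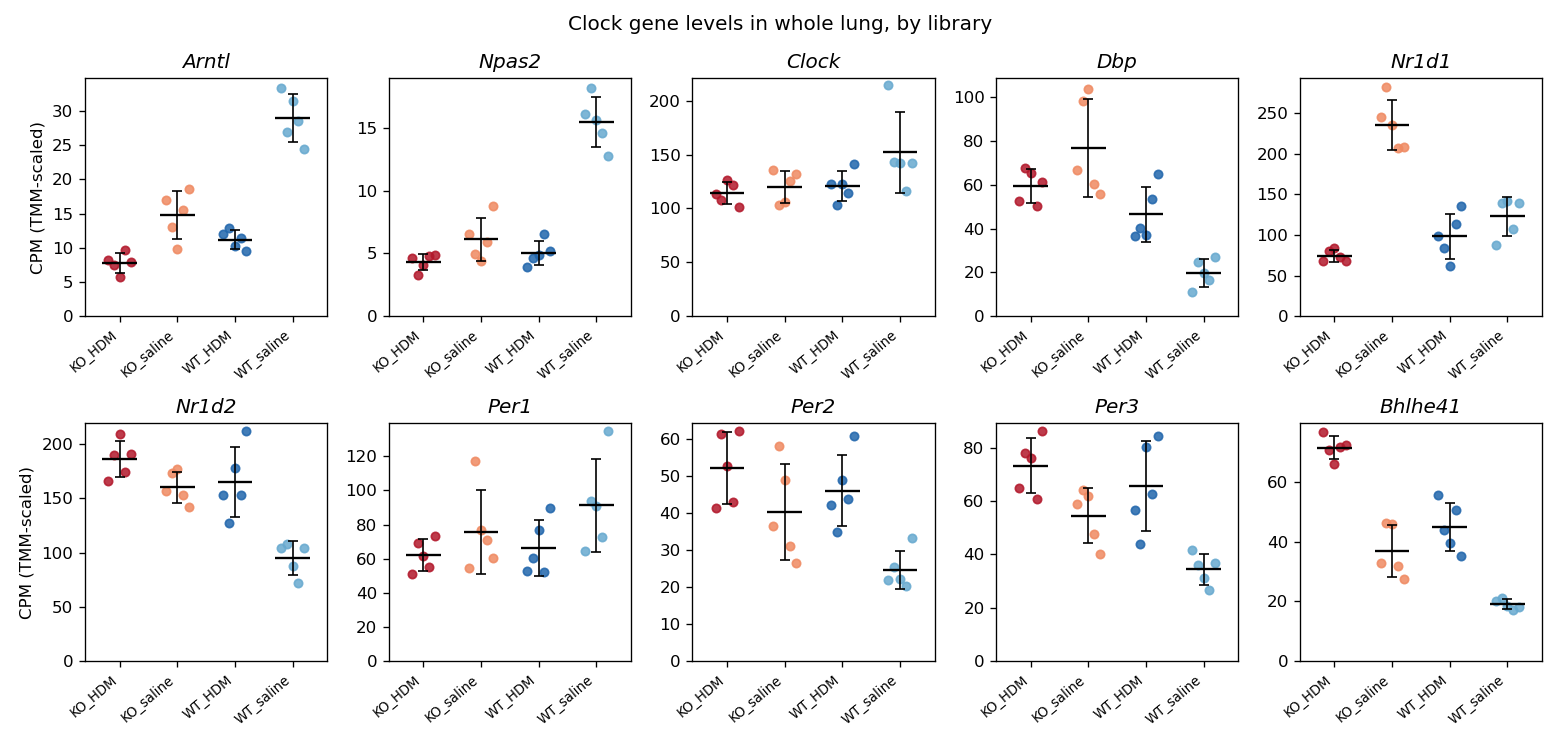
Level of each clock gene in CPM (linear axis from 0) in the 20 lung libraries, 1 point a library, with the group mean (horizontal line) and SD (error bar, n = 5). Arntl and Npas2 are highest in WT_saline, Nr1d1 is highest in KO_saline, and Bhlhe41 is highest in KO_HDM and lowest in WT_saline.

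**Figure D2:**
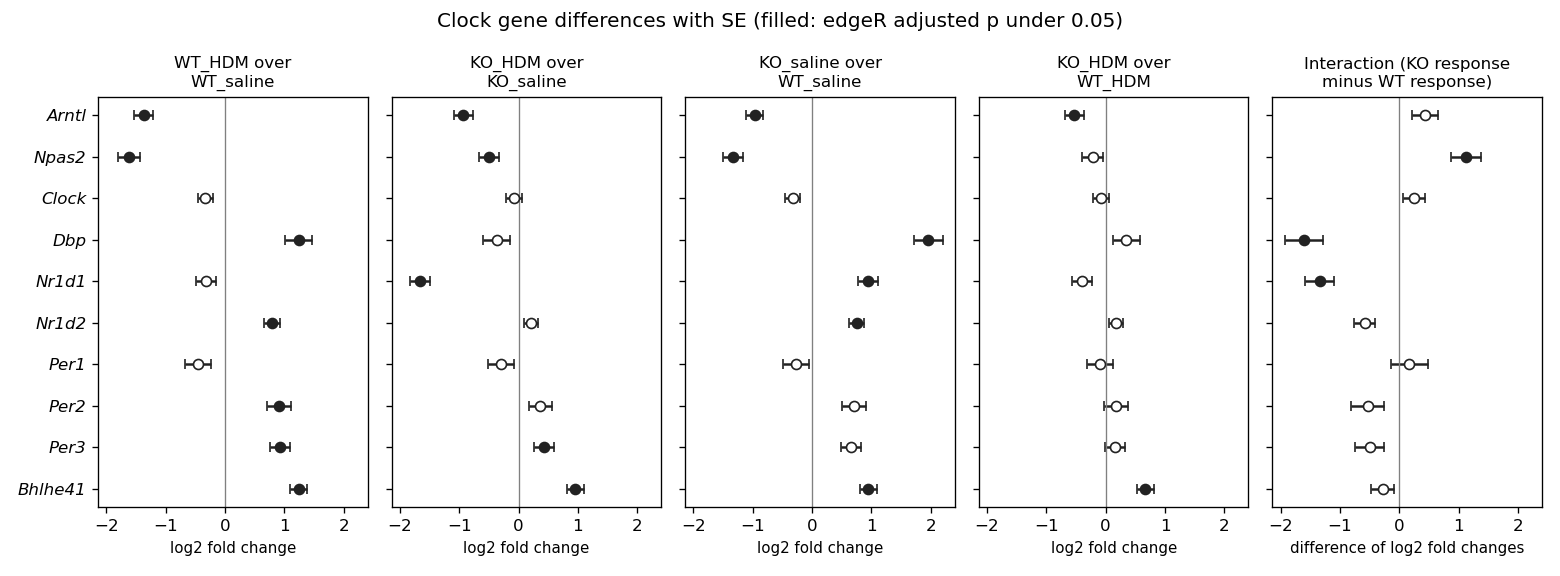
Log2 fold change of each clock gene with its SE in the 4 comparisons, and the difference of the HDM responses (interaction), with filled points where edgeR's adjusted p was under 0.05. Filled points number 7, 5, 6, 2 and 3 from left to right.

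Repeated HDM in wild-type lungs went with lower Arntl and Npas2 and with higher Dbp, Nr1d2, Per2, Per3 and Bhlhe41. Of the 10 members, 5 were called higher and 2 lower with edgeR at an adjusted p under 0.05. Over all tested genes 30.1% were called, 13.6% higher and 16.5% lower. The median absolute log2 fold change was 0.92 over the members and 0.25 over all genes. In 7 members the groups did not overlap, where 11.6% of all genes did so.

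Among the activators, Arntl had 12, 12.9, 10.3, 11.5 and 9.51 CPM in WT_HDM libraries, against 33.4, 27.0, 31.5, 28.6 and 24.5 CPM in WT_saline libraries. Every WT_HDM library lay well below every WT_saline library. Arntl fell by 1.37 ± 0.16 (SE) on the log2 scale (edgeR adjusted p = 5.44e-06). Npas2, which can take the place of CLOCK beside ARNTL, had 3.89, 4.67, 4.90, 6.57 and 5.15 CPM in WT_HDM, against 16.1, 18.2, 15.6, 14.6 and 12.8 CPM in WT_saline. Its groups did not overlap either, and it fell by 1.62 ± 0.18 (adjusted p = 2.63e-06). Clock averaged 121 ± 14.1 CPM in WT_HDM and 152 ± 37.4 CPM in WT_saline (SD, n = 5) and did not pass the test, with a log2 difference of -0.33 and a 95% interval of -0.61 to -0.06 (adjusted p = 0.0641). It passed without WT_HDM 5 (-0.35, adjusted p = 0.0496) or WT_saline 4 (-0.41, adjusted p = 0.0181).

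Among the targets of the loop, Dbp, a transcription factor that carries the rhythm to output genes, had 36.5, 40.4, 37.1, 53.6 and 64.9 CPM in WT_HDM, against 10.8, 24.6, 19.6, 16.6 and 27.2 CPM in WT_saline. All WT_HDM libraries were above all WT_saline libraries, and Dbp rose by 1.24 ± 0.23 (adjusted p = 0.000689). Sphk2, whose exons on the opposite strand overlap those of Dbp by 539 bases, had a log2 difference of -0.04 (adjusted p = 0.791). Bhlhe41, which encodes the E-box repressor DEC2, had 55.6, 43.8, 39.5, 50.6 and 35.4 CPM in WT_HDM, against 20, 21.3, 18.6, 17.1 and 18.3 CPM in WT_saline. It was higher in every WT_HDM library, with a log2 fold change of 1.24 ± 0.14 (adjusted p = 4.16e-06). The other DEC repressor, Bhlhe40, averaged 111 CPM in WT_HDM and 49.8 CPM in WT_saline and rose by 1.15 ± 0.13 (adjusted p = 5.19e-06).

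Of the REV-ERB genes, Nr1d2 passed the test and Nr1d1 did not. Nr1d2 had 153, 127, 178, 153 and 212 CPM in WT_HDM, against 104, 108, 87.4, 71.6 and 104 CPM in WT_saline, without overlap, and rose by 0.79 ± 0.13 (adjusted p = 0.00015). Nr1d1 had 98.3, 83.7, 62.2, 113 and 136 CPM in WT_HDM, against 87.9, 140, 142, 107 and 139 CPM in WT_saline. The ranges of Nr1d1 overlapped, and its log2 difference was -0.32 with an interval of -0.67 to 0.03 (adjusted p = 0.157; 0.0472 without WT_saline 1). Reads at the end of Nr1d1 may be shared with Thra, a thyroid hormone receptor gene on the opposite strand whose exons overlap it by 263 bases in the GENCODE annotation. Thra fell by 0.95 on the log2 scale (adjusted p = 2.13e-06).

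The Per genes, whose proteins close the loop by inhibiting CLOCK and ARNTL, passed the test in Per2 and Per3 but not in Per1. Per2 averaged 46.1 ± 9.68 CPM in WT_HDM and 24.6 ± 5.17 CPM in WT_saline and rose by 0.91 ± 0.20 (adjusted p = 0.00252). Per3 averaged 65.5 ± 16.8 CPM in WT_HDM and 34.4 ± 5.84 CPM in WT_saline and rose by 0.93 ± 0.17 (adjusted p = 0.000547). Neither gene's ranges overlapped. Per1, which also answers quickly to stress hormones, had 52.5, 60.2, 76.8, 52.0 and 89.9 CPM in WT_HDM, against 64.4, 93.7, 91.0, 72.8 and 135 CPM in WT_saline. Its ranges overlapped, and the difference of -0.46 did not pass (interval -0.92 to -0.01, adjusted p = 0.114). With the replicate number added to the edgeR fit as a block, Per1 passed (-0.45, adjusted p = 0.0418). The labels do not give that number as a pairing or a batch.

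Summed levels of cell type markers moved with HDM as well. Summed over 4 endothelial markers the level was 1220 to 2230 CPM in WT_HDM and 2320 to 3490 CPM in WT_saline, and over 3 club cell markers 4700 to 9710 CPM in WT_HDM and 16200 to 22100 CPM in WT_saline. Over 5 alveolar macrophage markers it was 4770 to 11200 CPM in WT_HDM and 394 to 633 CPM in WT_saline. Eosinophil markers (5 genes) summed to 23.5 to 35.4 CPM in WT_HDM and 13.7 to 22.0 CPM in WT_saline, and red blood cell markers (4 genes) to 1010 to 1610 CPM in WT_HDM and 2100 to 5060 CPM in WT_saline. Siglec5 was listed under both the eosinophil and the alveolar macrophage markers, so both sums hold it. None of the markers summed here was at 0 in either group. Their part in the clock differences was not tested. In bulk lung a change in the number of cells and a change in marker RNA per cell cannot be told apart.

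In the knockout-labelled lungs Nr1d1, Arntl and Npas2 were lower with HDM, Bhlhe41 and Per3 were higher, and Dbp was not called. Of the 10 members, 2 were called higher and 3 lower, while 51.9% of all genes were called, 26.2% higher and 25.7% lower. The share of members called was thus close to that over all genes, and their median absolute log2 fold change was 0.40, against 0.38 over all genes. Groups did not overlap in 3 members and in 43.9% of all genes.

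Nr1d1 had 67.6, 80.8, 83.8, 72.3 and 68.4 CPM in KO_HDM, against 245, 282, 236, 207 and 208 CPM in KO_saline. The groups lay far apart, and Nr1d1 fell by 1.66 ± 0.17 on the log2 scale (edgeR adjusted p = 3.71e-07). Thra fell too, by 1.25 (adjusted p = 2.41e-08), and Nr1d1 reads may be shared with it. Arntl had 8.27, 7.45, 5.69, 9.65 and 7.87 CPM in KO_HDM, against 17, 13, 9.81, 15.6 and 18.6 CPM in KO_saline, with the highest KO_HDM library just below the lowest KO_saline library. It fell by 0.93 ± 0.16 (adjusted p = 7.79e-05). Npas2 averaged 4.33 ± 0.653 CPM in KO_HDM and 6.12 ± 1.69 CPM in KO_saline and fell by 0.50 ± 0.17 (adjusted p = 0.0215), with overlapping ranges. That call ended without KO_HDM 2 (adjusted p = 0.0613), KO_saline 1 (0.0672) or KO_saline 5 (0.141; log2 -0.30).

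Bhlhe41 had 76.7, 70.9, 66.0, 71.7 and 72.5 CPM in KO_HDM, against 32.8, 46.4, 45.9, 32.0 and 27.4 CPM in KO_saline, without overlap. Bhlhe41 rose by 0.96 ± 0.14 (adjusted p = 1.34e-05), and Bhlhe40 by 0.76 ± 0.13 (adjusted p = 8.99e-05). Per3 averaged 73.2 ± 10.3 CPM in KO_HDM and 54.5 ± 10.2 CPM in KO_saline and rose by 0.43 ± 0.17 (adjusted p = 0.0414). With 1 library removed at a time, 10 of 20 fits lost the Per3 call (adjusted p from 0.0136 to 0.0999), as did the fit without the adipose-rich libraries (0.0593). Dbp had 52.6, 67.9, 65.4, 50.2 and 61.2 CPM in KO_HDM, against 66.8, 98.4, 104, 60.3 and 55.8 CPM in KO_saline. Its ranges overlapped, and the log2 difference of -0.37 had an interval of -0.85 to 0.10 (adjusted p = 0.177). Nr1d2 (0.21, interval -0.05 to 0.48), Per1 (-0.29, -0.74 to 0.16), Per2 (0.37, -0.04 to 0.79) and Clock (-0.08, -0.35 to 0.20) did not pass. Per2 passed without KO_saline 2 (0.58, adjusted p = 0.019). The endothelial markers summed to 956 to 1910 CPM in KO_HDM and 3240 to 3450 CPM in KO_saline, and the club cell markers to 4290 to 8830 CPM in KO_HDM and 19500 to 28700 CPM in KO_saline. The alveolar macrophage markers summed to 3300 to 6670 CPM in KO_HDM and 401 to 781 CPM in KO_saline. Sums also did not overlap for alveolar type 1 (808 to 1480 CPM in KO_HDM and 2290 to 2880 CPM in KO_saline), red blood cell (2180 to 4050 CPM in KO_HDM and 8040 to 16600 CPM in KO_saline) and eosinophil markers (14.7 to 21.2 CPM in KO_HDM and 11.8 to 14.4 CPM in KO_saline). Hepatocyte markers summed to 27.0 to 96.2 CPM in KO_HDM and 0.652 to 1.10 CPM in KO_saline, where 2 of the 4 were at 0, as none of the other markers was. Their part was not tested.

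The difference between both HDM responses was tested as an interaction, knockout-labelled response minus wild-type response. It was called for 3 of the 10 members, 1 higher and 2 lower, and for 1.24% of all genes, 1.00% higher and 0.235% lower. Dbp rose with HDM in wild type but was not called in knockout-labelled lungs, a difference of -1.61 ± 0.32 (adjusted p = 0.0195). For Nr1d1 the difference was -1.34 ± 0.24 (adjusted p = 0.00976), and for Npas2 it was 1.12 ± 0.25 (adjusted p = 0.0284). Arntl (0.44, interval -0.02 to 0.90), Nr1d2 (-0.58, -0.95 to -0.21), Per2 (-0.53, -1.13 to 0.06), Per3 (-0.50, -1 to 0), Clock (0.25, -0.14 to 0.64), Per1 (0.17, -0.46 to 0.81) and Bhlhe41 (-0.28, -0.69 to 0.12) did not pass, although DESeq2 called Nr1d2 (adjusted p = 0.0425). Without the 5 adipose-rich libraries, which leaves 3 libraries in each wild-type group, the differences were -1.65 for Dbp, -1.32 for Nr1d1 and 1.12 for Npas2, with edgeR adjusted p of 0.0928 for Dbp, 0.0616 for Nr1d1 and 0.0875 for Npas2. The Dbp call was also lost without KO_HDM 4 (adjusted p = 0.0525). The Npas2 call was lost without KO_HDM 1 (adjusted p = 0.0597), KO_HDM 4 (0.0846), KO_saline 2 (0.0599), KO_saline 3 (0.0523), WT_saline 1 (0.0691), WT_saline 2 (0.0662) or WT_saline 3 (0.0552).

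Under saline, the knockout-labelled lungs differed from wild type in 6 of the 10 members, 4 higher and 2 lower, where 0.908% of all genes were called, 0.593% higher and 0.315% lower. The median absolute log2 fold change was 0.85 over the members and 0.15 over all genes. Groups did not overlap in 6 members and in 3.06% of all genes. Dbp, at the KO_saline and WT_saline levels given above, was higher in every KO_saline library and had a log2 fold change of 1.96 ± 0.24 (edgeR adjusted p = 8.7e-05). Npas2 had 6.56, 4.98, 4.40, 5.91 and 8.75 CPM in KO_saline, against 16.1, 18.2, 15.6, 14.6 and 12.8 CPM in WT_saline. It lay lower in every KO_saline library and fell by 1.34 ± 0.17 (adjusted p = 0.000176). Arntl, with 14.8 ± 3.46 CPM in KO_saline and 29.0 ± 3.54 CPM in WT_saline, fell by 0.97 ± 0.15 (adjusted p = 0.00142).

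Both REV-ERB genes were higher in the knockout-labelled lungs under saline. Nr1d1 averaged 236 ± 30.9 CPM in KO_saline and 123 ± 24.4 CPM in WT_saline, did not overlap, and rose by 0.94 ± 0.17 (adjusted p = 0.00468; log2 0.95 and adjusted p = 0.0579 without the adipose-rich libraries). Its neighbour Thra had 83.0 ± 3.50 CPM in KO_saline and 83.1 ± 11.7 CPM in WT_saline. Nr1d2 averaged 160 ± 14.5 CPM in KO_saline and 95.1 ± 15.3 CPM in WT_saline and rose by 0.75 ± 0.13 (adjusted p = 0.00212). Bhlhe41 averaged 36.9 ± 8.69 CPM in KO_saline and 19.1 ± 1.65 CPM in WT_saline and rose by 0.95 ± 0.14 (adjusted p = 0.00053). Per2 (0.71, interval 0.29 to 1.13, adjusted p = 0.127) and Per3 (0.66, 0.31 to 1.02, adjusted p = 0.0822) did not pass, although DESeq2 called both (adjusted p = 0.0352 for Per2 and 0.0122 for Per3). Per3 also passed without KO_saline 5 (adjusted p = 0.0396) or WT_HDM 2 (0.0434). Clock (-0.33, -0.61 to -0.06) and Per1 (-0.27, -0.72 to 0.18) did not pass either.

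Per1 and Nr1d1 lie on chromosome 11, which also carries Alox15, and in the RefSeq gene order 74 genes of the table lie between Per1 and Alox15 and 532 between Nr1d1 and Alox15. Between the labels, Per1 was not called under either treatment. Nr1d1 was called under saline (0.94, edgeR adjusted p = 0.00468) and not under HDM (-0.40, adjusted p = 0.168). The part of their place on the chromosome of Alox15 was not tested. Red blood cell markers moved with the label: 4 of them summed to 8040 to 16600 CPM in KO_saline and 2100 to 5060 CPM in WT_saline, none of them at 0. The part of red blood cells in the clock differences was not tested.

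Under HDM, 1 member was called higher and 1 lower in knockout-labelled lungs, against 6.67% of all genes, 4.79% higher and 1.88% lower. Bhlhe41 was the clearer one. Its KO_HDM libraries, from 66.0 to 76.7 CPM, all lay above the WT_HDM libraries, from 35.4 to 55.6 CPM. Bhlhe41 rose by 0.67 ± 0.14 (adjusted p = 0.00529) and was the only member without overlap, as were 7.01% of all genes. Arntl averaged 7.79 ± 1.43 CPM in KO_HDM and 11.2 ± 1.37 CPM in WT_HDM and fell by 0.53 ± 0.16, at an adjusted p of 0.0497. With 1 library removed at a time 15 of 20 fits lost the Arntl call (adjusted p from 0.0239 to 0.134), as did the fit without the adipose-rich libraries (log2 -0.45, adjusted p = 0.204). The other 8 members had log2 differences between -0.40 (Nr1d1, interval -0.75 to -0.05) and 0.35 (Dbp, -0.12 to 0.83). Nr1d1 passed without WT_HDM 3 (-0.53, adjusted p = 0.0447). Hepatocyte transcripts, 4 markers in sum, were at 27.0 to 96.2 CPM in KO_HDM and at most 0.384 CPM in WT_HDM. Red blood cell markers summed to 2180 to 4050 CPM in KO_HDM and 1010 to 1610 CPM in WT_HDM, and eosinophil markers to 14.7 to 21.2 CPM in KO_HDM and 23.5 to 35.4 CPM in WT_HDM. The part of these cells in the clock differences was not tested.

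Libraries of 1 group also differed from each other in Dbp and Arntl. After group means were removed from log2 CPM, Dbp and Arntl deviated in opposite directions over the 20 libraries (Pearson r = -0.72, permutation p = 0.00023; Spearman rho = -0.72, permutation p = 0.00161; two-sided, permuted within groups). Over the 7 relations computed, the adjusted permutation p was 0.00161 for r. Without WT_saline 1 and WT_saline 5, the libraries farthest out in Dbp, r was -0.71. In KO_saline, for example, libraries 2 and 3 held 98.4 and 104 CPM of Dbp with 13 and 9.81 CPM of Arntl, while library 5 held 55.8 CPM of Dbp with 18.6 CPM of Arntl. Deviations of Dbp also followed those of log2 total counts (r = 0.64, adjusted permutation p = 0.0172; rho = 0.52, adjusted p = 0.0817; r = 0.60 without the 2 libraries farthest out in depth). For Arntl and depth r was -0.38 (adjusted permutation p = 0.0959) and rho -0.46. The share of the ribosomal transcript Rn45s gave r = -0.25 with Dbp and 0.34 with Arntl, and the first principal component of the deviations, 37.1% of their variance, gave 0.01 and 0.19 (adjusted permutation p 0.233 to 0.977 for these 4). The part of depth in the relation of Dbp and Arntl was not tested.

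**Figure D3:**
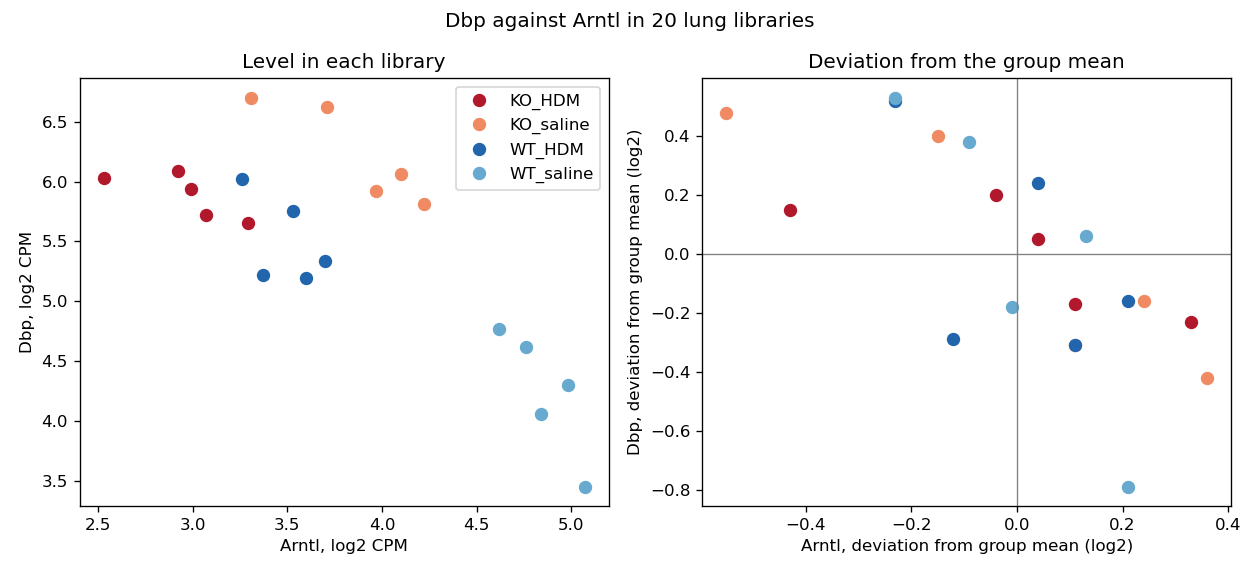
Dbp against Arntl in each of the 20 libraries, as log2 CPM (left) and as deviation from the group mean in log2 units (right), coloured by group. On the left WT_saline lies apart at high Arntl and low Dbp, and on the right the deviations run in opposite directions (r = -0.72).

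The deviations of the other members are given as a description over these 20 libraries. Those of Per2 correlated with those of Per1 (r = 0.82), Per3 (0.81), Dbp (0.76) and Nr1d2 (0.74), and inversely with Arntl (-0.73). The tightest pair was Nr1d2 and Per3 (0.89). Arntl and Npas2 moved together (0.56), while Clock followed neither side, with 0.24 for Arntl and -0.45 for Dbp but 0.43 for Nr1d2 and 0.30 for Per3. Bhlhe41 correlated most with Npas2 (-0.43) and Per2 (0.33). All these points share libraries, depth and scaling.

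**Figure D4:**
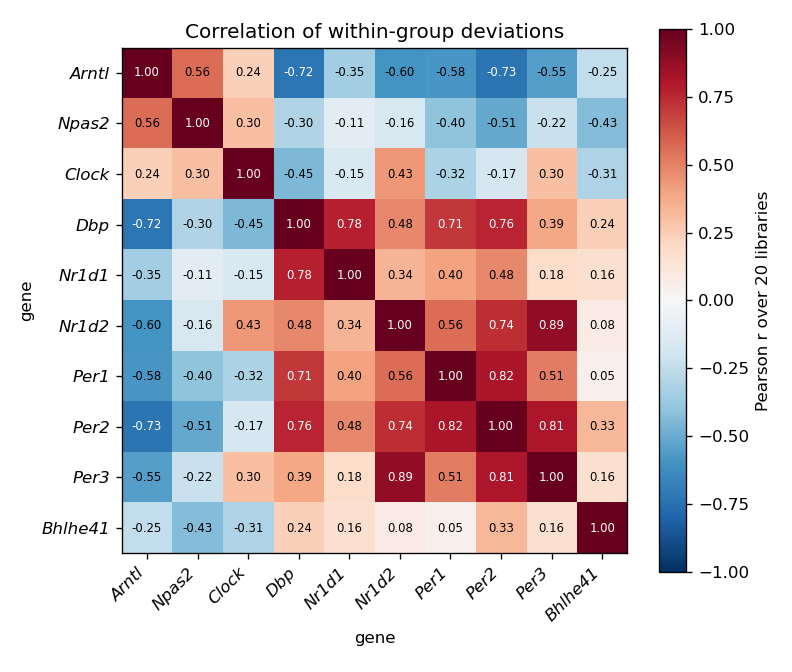
Pearson correlation of within-group deviations (log2 CPM, 20 libraries) for each pair of clock genes, from -1 (blue) to 1 (red). Dbp, Nr1d1, Nr1d2 and the Per genes correlate positively with each other (0.18 to 0.89), and each correlates inversely with Arntl (-0.35 to -0.73).

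Among 13061 other genes with a mean log2 CPM of 1 or more, the deviations most like those of Dbp belonged to Sord (r = 0.88), Por (0.88), Phc1 (0.88), Nit1 (0.87) and Barx2 (0.84). Por encodes the reductase that supplies electrons to cytochromes P450, and Sord encodes sorbitol dehydrogenase. The least like were Evi2a (-0.91), Pgap1 (-0.89), Setdb2 (-0.87), Abce1 (-0.86) and Primpol (-0.86). For Arntl the most like were Trim30b (0.73), Ammecr1 (0.73), Tpr (0.72), Usp7 (0.69) and Banp (0.69), and the least like Cyp1a1 (-0.80), Aldh1a7 (-0.80), Atp2b2 (-0.79), Aldh1a1 (-0.79) and Slc35a2 (-0.78). No member was among the genes just listed. From the top for Dbp, Nr1d1 ranked 32, Per2 64, Per1 138, Nr1d2 1310, Per3 2177 and Bhlhe41 3876. From the bottom for Dbp, Arntl ranked 210, Clock 1759 and Npas2 3010. From the bottom for Arntl, Per2 ranked 17, Dbp 19, Nr1d2 125, Per1 158, Per3 220, Nr1d1 1648 and Bhlhe41 3013.

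Of 25 further clock genes and regulators, all tested, 2 rose and 4 fell in WT_HDM over WT_saline and 8 rose and 6 fell in KO_HDM over KO_saline. In KO_saline over WT_saline 2 rose and 1 fell, in KO_HDM over WT_HDM 1 rose, and the interaction called none with edgeR or limma voom, 1 with DESeq2, and 6 at an unadjusted p under 0.05. Over all genes 30.1%, 51.9%, 0.908% and 6.67% were called in these comparisons in that order, and 1.24% for the interaction. The 14 of 25 called in KO_HDM over KO_saline are thus near the share over all genes. Median log2 fold changes of the 25 genes lay between 0.00 and 0.06, against -0.03 to 0.03 over all genes. Their absolute log2 fold changes had medians of 0.21, 0.28, 0.10, 0.14 and 0.17 in the same order. Over all genes these were larger, at 0.25, 0.38, 0.15, 0.16 and 0.20. Tef, a D-box activator related to Dbp, averaged 231 CPM in KO_saline and 124 CPM in WT_saline and rose by 0.90 ± 0.15 (adjusted p = 0.00182), and it fell by 0.43 in KO_HDM over KO_saline (adjusted p = 0.0185). Nfil3, a repressor at D-boxes, went the other way in each: it averaged 5.77 CPM in KO_saline and 11.3 CPM in WT_saline and fell by 0.97 ± 0.22 (adjusted p = 0.0352), and rose by 1.05 ± 0.22 in KO_HDM over KO_saline (adjusted p = 0.000556). The cryptochromes, partners of PER, were split in KO_HDM over KO_saline, with Cry2 lower by 0.91 ± 0.14 on the log2 scale (adjusted p = 3.32e-05) and Cry1 higher by 0.33 ± 0.12 (adjusted p = 0.0273). In WT_HDM over WT_saline neither passed (-0.33 and -0.03). Ciart, a repressor of the loop named here after its values were seen, averaged 4.50 CPM in KO_HDM, 4.08 in KO_saline, 4.97 in WT_HDM and 4.09 in WT_saline and passed in no comparison.

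**Figure D5:**
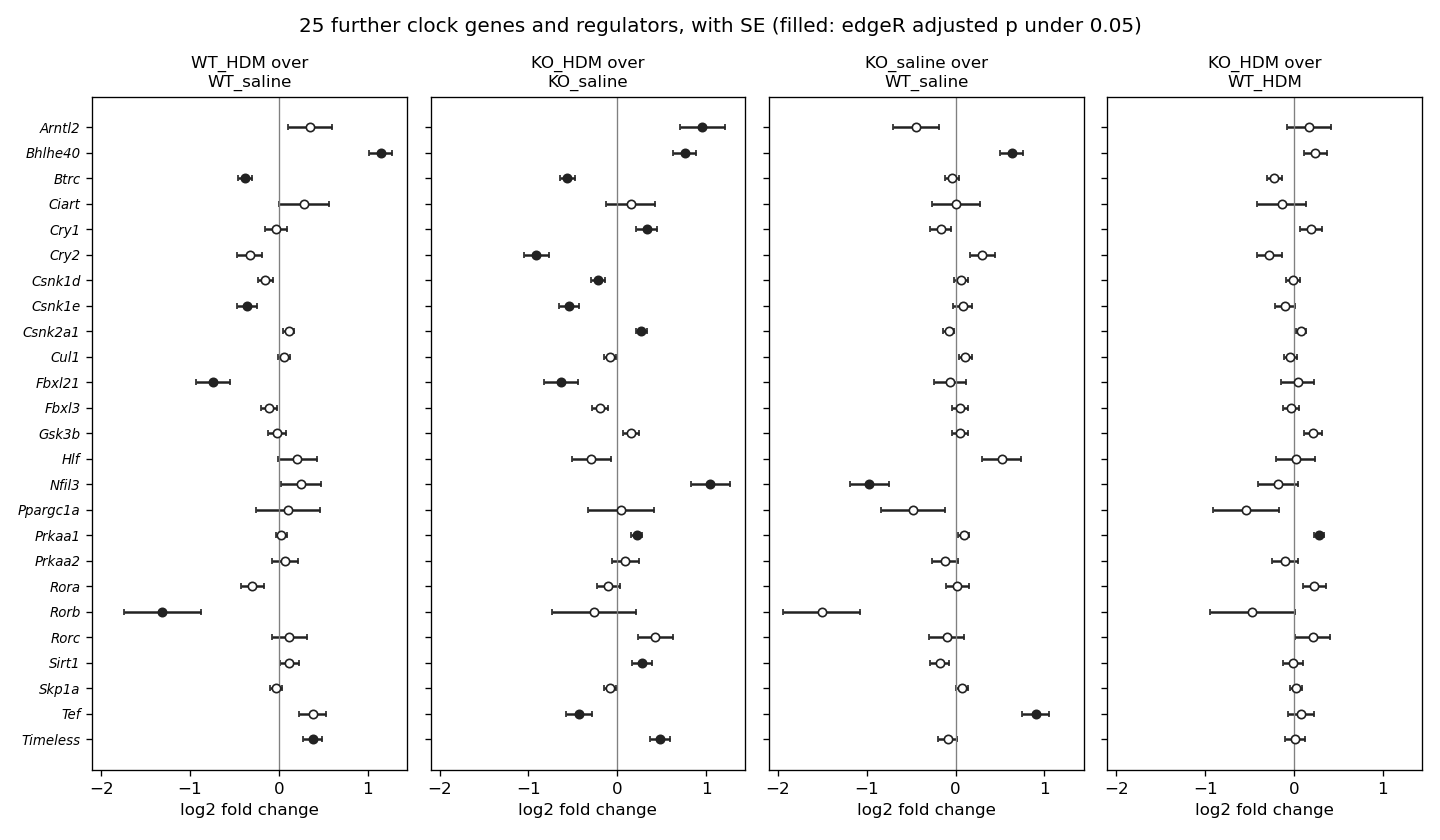
Log2 fold change with SE of 25 further clock genes and regulators in the 4 comparisons, with filled points where edgeR's adjusted p was under 0.05. Bhlhe40 is higher in 3 comparisons, and Tef and Nfil3 lie on opposite sides of 0 in KO_saline over WT_saline and in KO_HDM over KO_saline.

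Of 15 genes known as rhythmic outputs of the clock in many tissues, 2 rose and 4 fell in WT_HDM over WT_saline, and 4 rose and 4 fell in KO_HDM over KO_saline. A single gene rose in KO_saline over WT_saline, 1 rose and 2 fell in KO_HDM over WT_HDM, and the interaction called none with edgeR, DESeq2 or limma voom and 6 at an unadjusted p under 0.05. Over all genes 30.1%, 51.9%, 0.908% and 6.67% were called in these comparisons in that order, and 1.24% for the interaction. The 8 of 15 called in KO_HDM over KO_saline are thus near the share over all genes. Median log2 fold changes of the 15 genes were 0.11, -0.10, 0.14 and -0.06 in the same order, and -0.22 for the interaction. Over all genes the medians were -0.02, 0.02, -0.03 and -0.01, and 0.03 for the interaction. Wee1, a cell cycle kinase gene driven through E-boxes, averaged 32.2 CPM in KO_HDM, 17.3 in KO_saline, 20.2 in WT_HDM and 13.1 in WT_saline. It rose with HDM in both backgrounds (0.89 ± 0.12 in knockout-labelled, adjusted p = 9.93e-06, and 0.62 ± 0.13 in wild type, adjusted p = 0.00119) and with the knockout label under HDM (0.68 ± 0.12, adjusted p = 0.00242). Tspan4 averaged 37.2 CPM in KO_saline and 19.2 CPM in WT_saline and rose by 0.95 ± 0.18 (adjusted p = 0.00701). Por fell with HDM by 1.16 in knockout-labelled (adjusted p = 2.21e-06) and by 0.56 in wild-type lungs (adjusted p = 0.00577). Usp2, a ubiquitin protease gene with a strong rhythm in many organs and also named after its values were seen, averaged 14.2 CPM in KO_HDM, 15.3 in KO_saline, 14.8 in WT_HDM and 13.7 in WT_saline and passed in no comparison.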

How the data were processed

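The deposited values are expected counts for each gene. The submitters' processing notes name RSEM 1.2.15 and Bowtie2 2.1.0. These name the human build hg38 although the symbols are mouse, so the build used is not known, and RefSeq promoters of GRCm38.p6 were matched by symbol. Whether counting used strand is not given in the sources used here, so reads of overlapping genes (Nr1d1 with Thra, Dbp with Sphk2) may be shared. Expected counts were rounded. Genes were filtered with filterByExpr (16193 of 24054 kept) and scaled by TMM, and edgeR 4.0.16 (R 4.3.3) fitted all 20 libraries together (16 residual degrees of freedom), by robust quasi-likelihood F tests with Benjamini-Hochberg adjustment over all genes. Standard errors are the absolute log2 fold change over the square root of F. Log2 CPM used a prior count of 2. Correlation p-values came from 100000 permutations within groups, and the relations with depth, Rn45s and the first component were added after the data were seen. Named genes were all members, Alox15, up to 4 called genes a list and direction, and the 5 most and least like Dbp and Arntl. Members and lists were chosen with earlier results of these data known. Depth of 12573094 or more counts puts 1 CPM above 10 counts. Alternatives were other scalings, filters, DESeq2 1.42.0, limma 3.58.1 voom, fewer libraries and a replicate block. The test was checked on simulated counts.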

Additional observations from a re-analysis of the deposited data

Results flagged for a closer look

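The responses of 3 clock genes to HDM differed between the genotype labels by the test of the difference itself. The knockout-labelled response minus the wild-type response was -1.61 on the log2 scale for Dbp (edgeR adjusted p = 0.0195), -1.34 for Nr1d1 (0.00976) and 1.12 for Npas2 (0.0284). Between the labels, Dbp, Nr1d1 and Npas2 differed by 1.96, 0.94 and -1.34 under saline, where all were called. Under HDM they differed by 0.35, -0.40 and -0.22, and none was called. With edgeR, none of the interaction calls held without the 5 adipose-rich libraries, where 5 members had an unadjusted p under 0.05, limma voom called 0 and DESeq2 called 4. In 44 sets of 5 libraries (10 members and Alox15 in 4 groups), no library stood apart from the other 4 by more than 0.71 of the group's range.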

How the results depend on the processing

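Refits gave 1490 log2 fold changes over the members, comparisons and alternative settings, and these refits share most of their libraries. Among these values none reversed a called direction, 46 lost a call and 12 gained one. The count of members called in KO_HDM over WT_HDM was 1 with RLE factors, limma voom, the 10 compared libraries alone or without the adipose-rich libraries, and 1 to 2 leaving out 1 library. Leaving out 1 library gave 3 to 6 members in KO_HDM over KO_saline and 1 to 3 for the interaction, which had 0 without the adipose-rich libraries with edgeR (5 at an unadjusted p under 0.05, 0 with limma voom, 4 with DESeq2). Over all genes, DESeq2 called 327 in KO_saline over WT_saline (edgeR 147) and 608 for the interaction (edgeR 200; 103 without the adipose-rich libraries; 79 to 260 leaving out 1 library). The 10 compared libraries alone gave 2854 genes in WT_HDM over WT_saline (4866 in the joint fit), and leaving out 1 library gave 576 to 1396 in KO_HDM over WT_HDM (1080). Alox15 passed in KO_HDM over WT_HDM with limma voom (1.32). With edgeR leaving out 1 library it ran from 0.94 to 1.37. There it passed without WT_saline 1 (adjusted p = 0.0462) or WT_saline 2 (0.0453). The Alox15 interaction passed with DESeq2 (-2.01) and limma voom (-2.27). With edgeR leaving out 1 library the interaction ran from -2.66 to -1.77 and passed without WT_saline 2 (adjusted p = 0.0183). The cause was not tested. The labels do not say that replicate numbers pair the libraries, and the column headers of both HDM groups carry other numbers. In each comparison 1 to 4 of 5 same-numbered pairs had correlated deviations over 0.1. The correlations ran from 0 to 0.51 in WT_HDM with WT_saline and from -0.43 to 0.11 in KO_HDM with WT_HDM. With the replicate block 8 members were called in WT_HDM over WT_saline, Per1 among them (-0.45, edgeR adjusted p = 0.0418). Other scalings moved the median of all genes by at most 0.04. Depth limits Npas2 most, the member with the lowest levels (3.31 to 18.2 CPM).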

Other observations

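Among 15 glucocorticoid-responsive genes, which include Per1, 2 rose and 1 fell in WT_HDM over WT_saline, 2 rose and 4 fell in KO_HDM over KO_saline, 1 rose in KO_saline over WT_saline, and 1 rose and 1 fell in KO_HDM over WT_HDM. Over all genes 30.1%, 51.9%, 0.908% and 6.67% were called in these comparisons. In WT_HDM over WT_saline DESeq2 called 7 of the 15, against 3 with edgeR. The interaction called none with edgeR, DESeq2 or limma voom, and 2 at an unadjusted p under 0.05. Fkbp5, a chaperone gene induced by the glucocorticoid receptor, averaged 45.1 CPM in WT_HDM and 24.0 CPM in WT_saline (log2 0.91, edgeR adjusted p = 0.0103). Zbtb16, another induced gene, averaged 31.6 CPM in KO_HDM, 104 in KO_saline and 117 in WT_HDM, and was lower in KO_HDM than in KO_saline (-1.72, adjusted p = 0.00259) and than in WT_HDM (-1.88, adjusted p = 0.0125). Klf9 fell with HDM by 0.95 in knockout-labelled and 0.68 in wild-type lungs (adjusted p = 2.5e-05 and 0.00161). Lcn2, which also rises in inflammation, averaged 937 CPM in KO_HDM, 145 in KO_saline, 576 in WT_HDM and 62.5 in WT_saline.

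Of 13 immediate early genes, 2 rose and 4 fell in WT_HDM over WT_saline and 2 rose and 6 fell in KO_HDM over KO_saline, with medians of -0.42 and -0.67 on the log2 scale against -0.02 and 0.02 over all genes. Over all genes 30.1% were called in WT_HDM over WT_saline and 51.9% in KO_HDM over KO_saline, so the 8 of 13 called in knockout-labelled lungs are near the share over all genes. Egr2 rose with HDM by 2.21 (adjusted p = 1.44e-07) in knockout-labelled and by 1.86 (adjusted p = 3.93e-06) in wild-type lungs. Jun fell with HDM by 0.87 (adjusted p = 0.000118) in knockout-labelled and by 0.45 (adjusted p = 0.0326) in wild-type lungs. None was called between the labels under either treatment with edgeR, DESeq2 or limma voom, and 0 had an unadjusted p under 0.05 in edgeR.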
